A study of Mus musculus with 4 samples.

Results

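C1q macrophages are the resident phagocytes of the colon wall that carry transcripts of the complement component C1q. They were taken here as barcodes with at least 8 unique molecular identifiers (UMIs) of C1qa, C1qb and C1qc together and at least 2 of Csf1r, Lyz2 and Cd68. A barcode also had fewer than 2 UMIs of Epcam, fewer than 5 of Col1a2, and none of Cd79a, Cd3d, Cd3e or Cd3g. The rule took 1311 of the 44356 barcodes that passed the cell filters (2.96%), out of 49851 in the files. The data are droplet single-cell RNA counts from the mid-colon of mice aged 7 weeks under specific-pathogen-free housing. Mice of the DSS group drank 3% dextran sulfate sodium for 2 days, a polymer that damages the gut epithelium. Mice of the control group drank clean water. Each group held 2 libraries, named DSS 1, DSS 2, control 1 and control 2 after the numbers in their titles, and no strain, genetic change or marking of cells was named in the labels.

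Macrophages of the adult gut wall are replaced in large part from blood monocytes, which lose Ly6c2 and gain Cx3cr1, MHC class II and C1q as they mature. They clear dying cells and bacteria and present antigen, and a smaller population around vessels, nerves and muscle carries Lyve1 and Cd163 and is held to last longer. Interferons act on macrophages through surface receptors and raise the genes of antigen presentation and of defence inside the cell.

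The libraries held 101051573 to 109472082 UMIs. The 749 and 234 macrophages of DSS 1 and DSS 2 had medians of 6743 and 5054.5 UMIs, and the 166 and 162 of control 1 and control 2 had 4660.5 and 3912.5. Of the members, 23 were predicted doublets, and 15 carried a barcode that also occurred in another library. The labels do not say whether libraries of 1 group came from separate animals, so the spread between them may be technical. With 2 libraries against 2, an exact permutation test cannot give a two-sided p below 0.333, and shares are therefore given without a test. Levels are in CPM, the UMIs of a gene summed over the macrophages of a library, per 1000000 UMIs of those cells.

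Of 14 macrophage markers, 9 were not used by the rule, and all 9 were detected. Their summed level was 5633 and 5953.5 CPM in DSS 1 and DSS 2, against 7025 and 6707 CPM in control 1 and control 2. In dendritic cells, gated by fewer than 8 C1q UMIs and by MHC class II with Flt3, Zbtb46, Cd209a, Xcr1 or Clec9a, the same sum was 276 to 585 CPM, and in epithelial barcodes it was 81.5 to 150.2 CPM. In cells gated as monocytes, defined below, the sum was 1161 and 2019 CPM in DSS 1 and DSS 2. It was 522 and 2217 CPM in those of control 1 and control 2. The markers thus fit the label, with a smaller gap to gated monocytes than to dendritic cells or epithelial barcodes. A gate set by C1q will also differ in genes that go with it. C1qa, C1qb, C1qc and Csf1r were used to choose the cells, so their values are a description. C1qa, a chain of the C1q trimer, stood at 3956 and 3085 CPM in DSS 1 and DSS 2 and at 5389 and 3801.5 CPM in control 1 and control 2. Csf1r, the receptor for the growth factors on which macrophages depend, stood at 896 and 771 CPM in the DSS libraries and at 1022 and 993 CPM in the controls. Pf4, a platelet-type chemokine that tissue macrophages also make, had 936 and 811 CPM in DSS 1 and DSS 2, against 1972 and 799 CPM in control 1 and control 2. Mrc1, the mannose receptor, had 802 and 733 CPM in the DSS libraries and 1098 and 897 CPM in the controls. For C1qa and Pf4 the groups overlapped, and for Csf1r and Mrc1 both DSS libraries lay below both controls. The 84 cells just inside the threshold, with 8 to 10 C1q UMIs, had a median of 1899 UMIs and 579 CPM of Mrc1, and the 97 cells just outside it, with 5 to 7, had 1775 UMIs and 457 CPM. Apoe stood at 4447 CPM inside and 4201 CPM outside, Ms4a7 at 232 and 237 CPM, and the monocyte-gate gene Plac8 at 835 and 803 CPM. The means of all macrophages over the 4 libraries were 21270, 890 and 224 CPM for these genes. In them, members at the edge were thus nearer to the cells left out than to the macrophages as a whole.

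Against the dendritic gate the levels of many single genes differed. These are descriptions, since C1q set the gates apart. Apoe, the lipid carrier, averaged 21270 CPM in macrophages and 49.7 CPM in dendritic cells over the 4 libraries. Ms4a7, a membrane protein of mature macrophages, averaged 889.8 and 1.92 CPM, and Vcam1, an adhesion molecule, 395 and 2.55 CPM. Cx3cr1, the fractalkine receptor, averaged 656 CPM in macrophages and 5.26 CPM in dendritic cells. Lower in macrophages were the T cell attractant Ccl17, at 11.02 CPM against 515 CPM, and Ccr7, which guides dendritic cells to lymph nodes, at 12.9 against 424 CPM. All of these pointed the same way in 4 of 4 libraries. Cells gated as monocytes, with fewer than 8 C1q UMIs and at least 2 of Ly6c2, Plac8 and Chil3, differed from macrophages most in Pf4 (1129 CPM in macrophages, 19.8 in monocytes), in the collagenase Mmp13 (319 and 4.58 CPM) and in the class Ib gene H2-M2 (163 and 0 CPM). The monocyte gate also asked for at least 2 UMIs of Csf1r, Lyz2 and Cd68, none of Flt3, and the exclusions of the macrophage rule. The dendritic gate shared those exclusions. It asked for at least 20 UMIs of H2-Aa, H2-Ab1, H2-Eb1 and Cd74, at least 2 of its marker genes and none of Ly6c2. Of the 327 gated monocytes, 49 also met the dendritic gate and were counted as monocytes only.

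The share of macrophages differed more between the DSS libraries than between the groups. Macrophages made up 6.22% of passing barcodes in DSS 1 (exact Clopper-Pearson interval 5.80 to 6.67) and 1.91% in DSS 2 (1.68 to 2.17), against 1.78% in control 1 (1.52 to 2.07) and 1.51% in control 2 (1.29 to 1.76). The groups did not overlap, at 4.07% ± 3.05 in DSS and 1.64% ± 0.194 in control (SD, n = 2 each), and the difference rested on DSS 1, without which it was 0.266 percentage points. Intervals cover counting error only. Of barcodes with a UMI of Ptprc, the pan-leukocyte gene, macrophages made up 13.5% and 8.12% in DSS 1 and DSS 2, against 15.7% and 8.24% in control 1 and control 2, so that both DSS libraries no longer stood above the controls. Epithelial barcodes, with at least 2 Epcam UMIs, made up 22.3% and 38.0% of DSS 1 and DSS 2 and 61.2% and 62.3% of control 1 and control 2. Their part in the share of macrophages was not tested.

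**Figure D1:**
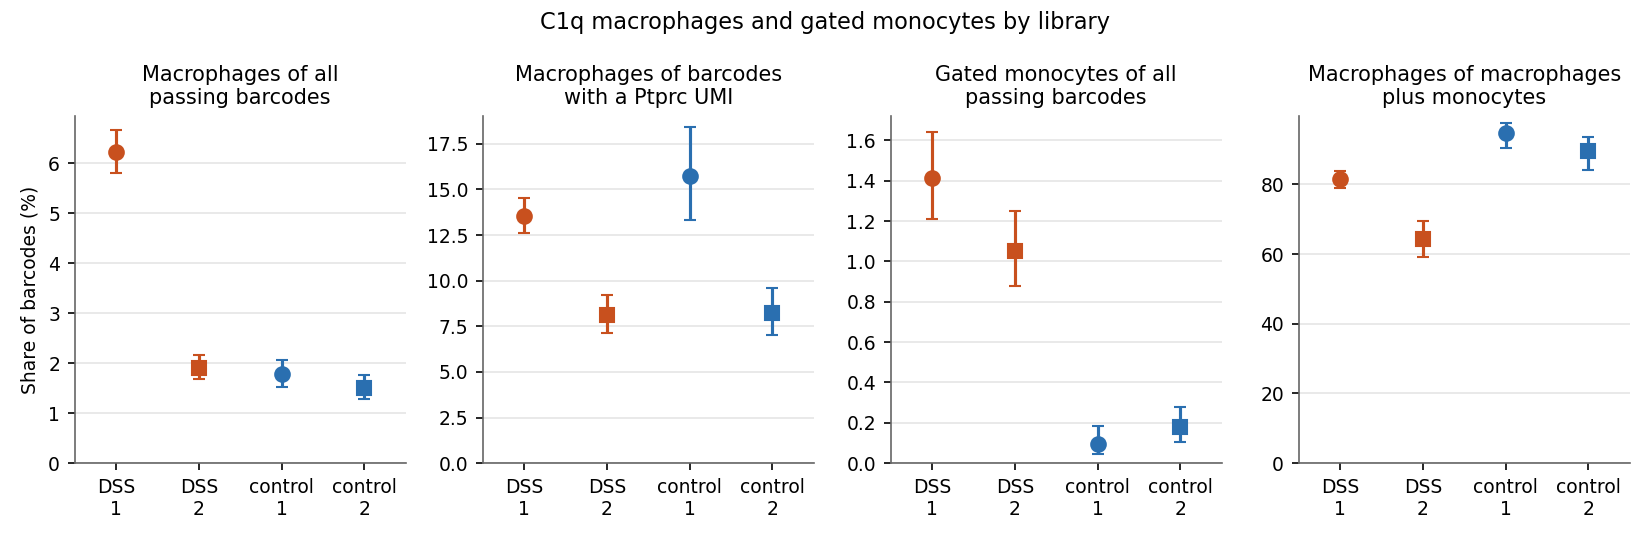
Shares of barcodes (%) for DSS 1, DSS 2, control 1 and control 2, with points for libraries and bars for exact 95% binomial intervals. Macrophages of all passing barcodes are highest in DSS 1 (6.22%), gated monocytes are above 1% in both DSS libraries and below 0.2% in both controls, and macrophages of macrophages plus monocytes are lowest in DSS 2 (64.5%).

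More barcodes of the DSS libraries met the monocyte gate. Gated monocytes were 170 and 129 barcodes in DSS 1 and DSS 2 (1.41% and 1.05%), against 9 and 19 in control 1 and control 2 (0.0966% and 0.177%). Macrophages thus made up 81.5% and 64.5% of macrophages plus monocytes in DSS 1 and DSS 2, and 94.9% and 89.5% in control 1 and control 2. Both DSS libraries lay below both controls, by 19.2 percentage points in the mean. The control gate was of mixed content. In control 2 its 19 barcodes held 3792 CPM of the neutrophil gene S100a9, and in control 1 its 9 barcodes held 933 CPM of Rprm, a gene outside the marker lists. The genes of the gate are no proof of a monocyte, since 86.8% and 93.5% of epithelial barcodes in DSS 1 and DSS 2, and 89.6% and 91.7% in control 1 and control 2, also had at least 2 UMIs of Ly6c2, Plac8 and Chil3. Ccr2, which the gate did not use, stood at 1053 and 484 CPM in the gated cells of DSS 1 and DSS 2. It stood at 522 and 312 CPM in those of control 1 and control 2, against 1.16 to 10.01 CPM in epithelial barcodes. In the dendritic gate Ccr2 stood at 288 and 197 CPM in DSS 1 and DSS 2, and at 714 and 375 CPM in control 1 and control 2. Ccr2 thus did not set the gated cells of the controls apart from dendritic cells. The median depth of the gated cells was 5599.5 and 4493 UMIs in the DSS libraries, and 4150.0 and 1781 UMIs in the controls. The part of free RNA in the counts of gated cells was not tested.

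No gene of the macrophages passed the test of DSS against control. Of 8360 genes tested with edgeR's quasi-likelihood test, 0 (0%) had an adjusted p below 0.05, while 162 had an unadjusted p below 0.05 and DESeq2 called 5. What the libraries show is therefore given as levels, and as counts of genes for which both DSS libraries lay on 1 side of both controls. Over all genes tested, both DSS libraries were above both controls for 1195 genes (14.3%) and below both for 1025 (12.3%). Leaving out DSS 1 gave 47 genes past the threshold and leaving out DSS 2 gave 9, with a single remaining DSS library assumed to vary as the controls do.

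Genes that answer to interferon made up most of the leading names. Of the 10 genes of the higher side with the smallest unadjusted p at a level of at least 20 CPM and enriched in macrophages, 7 were on the 2 interferon lists. Gbp2, a guanylate-binding protein that acts on bacteria and parasites inside cells (chromosome 3, 142620602 to 142638008, GRCm38), had 119.9 and 395 CPM in DSS 1 and DSS 2, against 42.4 and 25.05 CPM in the controls. Its value in DSS 2 was over 3 times that in DSS 1, and the log2 fold change was 2.87 ± 0.631 (SE), with an adjusted p of 1.00 from edgeR. Isg15, a ubiquitin-like modifier, had 117 and 262 CPM in the DSS libraries and 51.2 and 33.9 CPM in the controls. Serpina3g, a protease inhibitor induced in activated macrophages, had 36.7 and 56.9 CPM in DSS 1 and DSS 2, against 2.50 and 4.42 CPM in control 1 and control 2. Its log2 fold change of 3.71 ± 0.533 (SE) came with an adjusted p of 0.578 from edgeR. Ifit2, which binds viral RNA, had 33.6 and 83.7 CPM in the DSS libraries, against 9.98 and 2.95 CPM in the controls. The GTPases Irgm1 and Igtp, which act on vacuoles that hold microbes, had 38.0 and 46.3 CPM and 34.3 and 46.3 CPM in DSS 1 and DSS 2, against 16.2 and 13.3 CPM and 12.5 and 16.2 CPM in control 1 and control 2. For none of these did the groups overlap. Outside the 2 lists were Calhm6, an ion channel subunit (58.6 and 70.7 CPM in DSS, 16.2 and 22.1 CPM in control), the nuclear receptor Nr4a2 (128 and 209 CPM in DSS, 36.2 and 61.9 CPM in control) and the GTPase Ifi47 (58.6 and 56.1 CPM in DSS, 22.5 and 10.3 CPM in control). Gbp, Irg, Serpina3, Ly6c and class I genes have close copies, and how the counting shared reads among them was not stated, so their separate levels are uncertain.

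The stretch before the start of these genes is shown for 5 of them, since many genes of the interferon lists share letters there. Ifit2 is not shown, and its stretches held no match. The sequences are from RefSeq on GRCm38.p6, the 100 bases that end just before the start taken from RefSeq, 5′ to 3′ along the gene's strand. That start can differ from the GENCODE position of the gene. In GENCODE, Gbp2 starts at 142620602, inside its stretch. The stretch of Irgm1 lies within its gene, which reaches 48871683 on the minus strand. Serpina3g starts at 104236245, beyond the end of its stretch. Capitals mark GAAA followed after any 2 bases by a second GAAA, on either strand, the core of the interferon-stimulated response element, and TTCNNNGAA, the gamma-activated site, which reads the same on both strands. In Isg15 and Irgm1 neighbouring matches overlap.
Gbp2 (chr3:142620563-142620662, plus strand): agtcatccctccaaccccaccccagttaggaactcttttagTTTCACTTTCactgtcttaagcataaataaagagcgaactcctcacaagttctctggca
Isg15 (chr4:156200819-156200918, minus strand): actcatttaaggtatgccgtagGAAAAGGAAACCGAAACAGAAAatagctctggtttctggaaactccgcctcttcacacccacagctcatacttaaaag
Irgm1 (chr11:48871421-48871520, minus strand): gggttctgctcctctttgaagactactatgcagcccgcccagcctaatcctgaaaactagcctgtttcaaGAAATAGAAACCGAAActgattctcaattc
Igtp (chr11:58199456-58199555, plus strand): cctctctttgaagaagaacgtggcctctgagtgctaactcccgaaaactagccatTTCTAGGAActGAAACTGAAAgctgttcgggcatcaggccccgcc
Serpina3g (chr12:104236047-104236146, plus strand): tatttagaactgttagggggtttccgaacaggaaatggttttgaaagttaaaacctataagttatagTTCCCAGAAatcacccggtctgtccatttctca

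Of the 43 interferon-list genes higher in both DSS libraries, 31 had a promoter window of 300 bases in the table, from 250 before to 50 after the start. The spaced GAAA repeat was found in 22 of their 36 windows (61.1%), in 292 of the 8410 windows of all genes tested (3.47%) and in 31 of the 60 windows of all interferon-list genes (51.7%). TTCNNNGAA was found in 7 of the 36 windows (19.4%), in 554 of the 8410 windows of all genes tested (6.59%) and in 13 of the 60 windows of all interferon-list genes (21.7%). Windows of 1 gene can overlap, the lists were drawn up from known interferon targets, and a match is a run of letters, not a measured site. The shown stretch of Serpina3g held TTCNNNGAA and no spaced GAAA repeat, and neither window of Ifit2 held the repeat.

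The genes of interferon gamma and of class I presentation were mostly higher. Of 36 genes listed, 34 passed the filter on low counts, 0 passed the test, and 23 were higher in both DSS libraries than in both controls (67.6%, with 14.3% over all genes tested). The exception on the lower side was Irf1, a transcription factor of the same pathway, with 128 and 124 CPM in DSS 1 and DSS 2, against 269.6 and 140.0 CPM in control 1 and control 2. The median log2 fold change of the 34 genes was 0.63, and that of all genes tested was -0.01. Tap1, Psme2 and B2m were among the 23. Tap1, a subunit of the peptide transporter, had 90.6 and 151 CPM in the DSS libraries and 59.9 and 58.9 CPM in the controls, and Psme2, a proteasome activator, had 177 and 245 CPM in DSS and 129 and 103 CPM in control. B2m, the light chain of class I, had 2988 and 3295 CPM in DSS 1 and DSS 2, against 2485 and 2502 CPM in the controls, a log2 fold change of 0.30 ± 0.390 (SE). The heavy chains H2-K1 and H2-D1 overlapped between the groups. Tap1, Psme2 and Irf1 were picked from the list after their values were seen.

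The list of type I interferon targets gave a like count. Of 39 genes, 35 were tested and 20 were higher in both DSS libraries (57.1%, with 14.3% over all genes tested). On the lower side were 0, with 12.3% over all genes tested, and the median log2 fold change was 0.63. Ly6e, a surface protein among the most abundant of the list, had 817 and 994 CPM in DSS 1 and DSS 2, against 605 and 539 CPM in control 1 and control 2. Ifitm3, which blocks viral entry, had 528 and 1016 CPM in DSS, against 746 and 227 CPM in control, and the groups overlapped. Rsad2, an antiviral enzyme, and Ifit1 were far higher in 1 library: Rsad2 had 35.2 and 346 CPM in DSS 1 and DSS 2, against 21.2 and 19.2 CPM in the controls. Ifit1 had 12.4 and 143 CPM in the DSS libraries, against 6.24 and 8.84 CPM in the controls. Both were named after their values were seen.

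**Figure D2:**
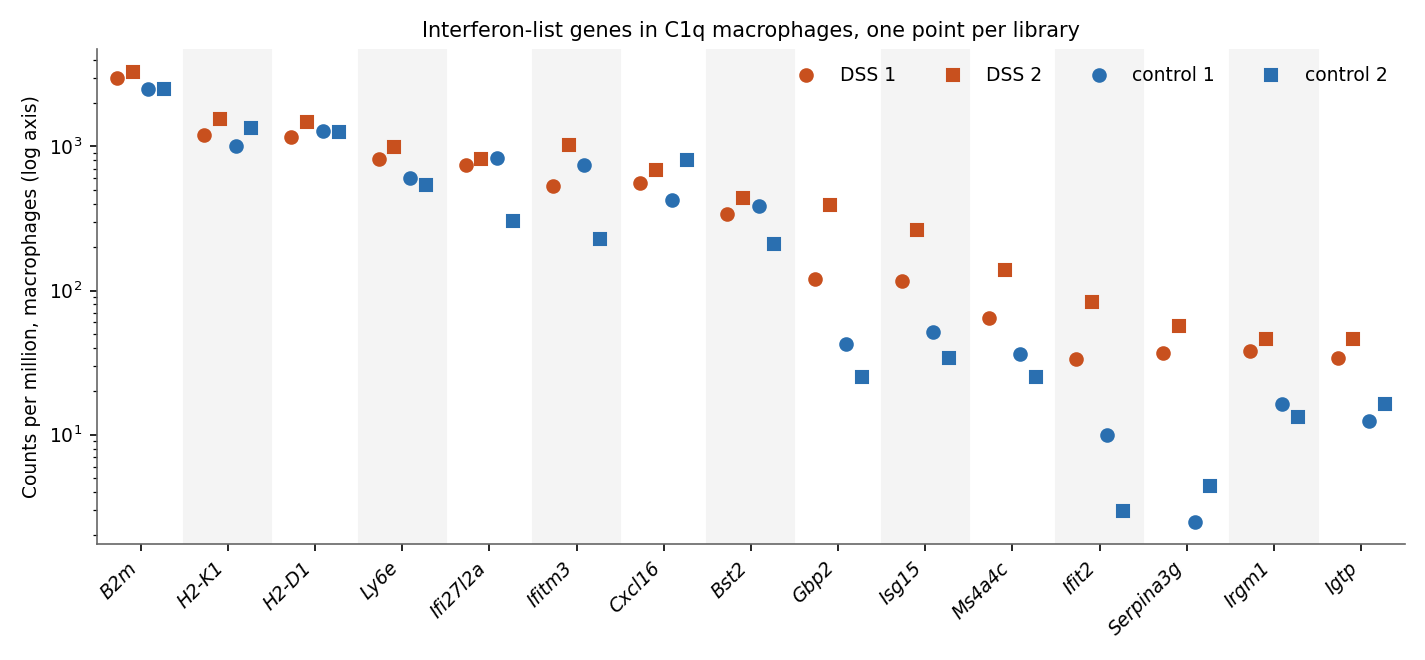
Level (CPM, log axis) of interferon-list genes given by the naming rule in C1q macrophages, with a point for each of DSS 1, DSS 2, control 1 and control 2. B2m, Ly6e and the 7 genes from Gbp2 to Igtp have both DSS points above both control points, and H2-K1, H2-D1, Ifi27l2a, Ifitm3, Cxcl16 and Bst2 do not.

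The share of macrophages with a UMI of these genes differed in the same direction. After every cell was thinned to 2000 UMIs, with 39, 22, 14 and 34 shallower macrophages of DSS 1, DSS 2, control 1 and control 2 left out, 15.4% and 34.9% of macrophages in DSS 1 and DSS 2 had a Gbp2 UMI, against 7.89% and 5.47% in control 1 and control 2. Without thinning the shares were 29.8% and 49.6% in DSS and 13.3% and 9.26% in control. Isg15 was seen in 15.4% and 25.5%, against 7.89% and 6.25%. In epithelial barcodes, which also express these genes and had medians of 9543 to 17750 UMIs before thinning, Gbp2 was seen in 3.33% and 5.09% of thinned DSS and 1.11% and 2.16% of thinned control barcodes. The lists were also counted outside the macrophages. At a mean of at least 10 CPM, 23 of 34 genes of the interferon gamma list were higher in both DSS libraries in macrophages (background 14.8%), 15 of 30 in the dendritic gate (background 12.9%) and 17 of 26 in epithelial barcodes (background 4.16%). For the type I list the counts were 21 of 35 in macrophages, 12 of 30 in the dendritic gate and 7 of 22 in epithelial barcodes. They stand beside the same backgrounds of 14.8%, 12.9% and 4.16%. Since these backgrounds differ, the counts do not rank the gates. Whether the responses of these cells differ in size was not tested.

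The same counts were taken within parts of the macrophages, chosen after the data were seen. Among macrophages with no UMI of Lyve1, Cd163, Cd209f or Timd4, 22 of 33 genes of the interferon gamma list were higher in both DSS libraries (background 13.1%), and 17 of 30 of the type I list. Among macrophages with no UMI of Ly6c2, Plac8 or Chil3 these counts were 19 of 32 and 13 of 28 (background 13.6%). The median log2 fold changes there were 0.54 and 0.49.

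Genes of MHC class II presentation showed no common direction. Of 16 genes, 0 were higher and 1 was lower in both DSS libraries, beside 14.3% and 12.3% of all genes tested. The median log2 fold change was -0.06, with -0.34 to 0.31 when 1 library was left out. H2-Aa had 8916 and 8796 CPM in DSS 1 and DSS 2, against 7310.3 and 11220.3 CPM in control 1 and control 2. The invariant chain Cd74 had 20644 and 20915 CPM in the DSS libraries, and 17072 and 28174 CPM in the controls. In both genes the control libraries lay on either side of the DSS libraries. The transactivator Ciita overlapped as well, at 182 and 91.9 CPM in DSS and 107 and 177 CPM in control, and was named after its values were seen.

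Inflammatory genes showed no common direction between the groups. On the list of NF-kB targets and cytokines, 2 of 29 tested genes were higher and 3 lower in both DSS libraries, beside 14.3% and 12.3% of all genes tested. The median log2 fold change was 0.21, and it was -0.39 to 0.93 when 1 library was left out. Il1b, the inflammasome cytokine that resident gut macrophages already carry, had 1930.2 and 2641 CPM in DSS 1 and DSS 2, against 1361 and 2495 CPM in the controls. Tnf had 188 and 335 CPM in DSS, against 175 and 119 CPM in control, a log2 fold change of 0.78 ± 0.411 (SE), and Il6 had 11.3 and 57.7 CPM in DSS against 3.74 and 10.3 CPM in control. The inhibitor Nfkbia was lower, at 777 and 911 CPM in the DSS libraries and 1390.2 and 1048 CPM in the controls. Of 19 chemokines tested, 3 were higher and 1 lower in both DSS libraries, beside the same 14.3% and 12.3% of all genes. The neutrophil attractant Cxcl2 had 2116 and 4079 CPM in DSS 1 and DSS 2, and 4319 and 3163.5 CPM in control 1 and control 2, so the groups overlapped. Ccl4, which draws in monocytes and T cells, had 1972 and 2064 CPM in DSS 1 and DSS 2, against 4399 and 1498.5 CPM in control 1 and control 2, with the controls on either side.

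Several genes of the mature gut macrophage were lower. On the list of mucosal macrophage genes, 6 of 16 were lower and 0 higher in both DSS libraries, beside 12.3% of all genes on the lower side. The list had no steady direction, with a median log2 fold change of -0.30 that was -0.47 to 0.55 when 1 library was left out. Among macrophages with no UMI of Ly6c2, Plac8 or Chil3 the median was 0.01. There 5 of 16 were lower, beside 719 of the 6444 genes tested. Cx3cr1 had 617 and 257 CPM in DSS 1 and DSS 2, against 936 and 815 CPM in control 1 and control 2, a log2 fold change of -1.02 ± 0.485 (SE). Apoe had 17330.3 and 14336.5 CPM in the DSS libraries, against 28453 and 24959 CPM in the controls. Fcrls, a receptor-like protein of resident macrophages, had 174 and 144 CPM in DSS and 449 and 219.5 CPM in control. Cd81 and Il10ra were also on the lower side. Of 22 genes of identity and transcription factors, 5 were lower (Csf1r, Cx3cr1, Adgre1, Tgfbr2 and Mef2c) and 2 higher (Nr1h3 and Tfec). Csf1r was used to choose the cells, so its place there is a description. The median log2 fold change of the 22 genes was -0.06, and 9 had a fold change above 0. Nr1h3, the oxysterol receptor LXR alpha, had 32.8 and 26.8 CPM in DSS, against 11.2 and 16.2 CPM in control. Retnla, a secreted factor of alternatively activated macrophages, had 491 and 823 CPM in DSS 1 and DSS 2, against 1028 and 1259.8 CPM in the controls, and its log2 fold change was -0.84 ± 0.400 (SE). On the complement list 3 of 15 genes were lower in both DSS libraries and 0 higher.

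Of the 10 genes of the lower side with the smallest unadjusted p, few belong to a known macrophage program. Slco2b1, an organic anion carrier, had 79.3 and 31.7 CPM in DSS 1 and DSS 2, against 188 and 121 CPM in control 1 and control 2. Hpgd, which inactivates prostaglandin E2, had 172 and 78.1 CPM in the DSS libraries, against 550.3 and 202 CPM in the controls. G530011O06Rik had 29.7 and 24.4 CPM in DSS, against 115 and 64.8 CPM in control. The others, Serpinf1, Mtus1, Hyi, Mir99ahg, Rad51b, Sirt3 and S1pr1, had log2 fold changes of -1.43 to -0.98. The largest drop among all genes by p was outside this naming rule: the goblet genes Spink4, Agr2 and Muc2, which are not macrophage genes. The summed level of 17 epithelial markers in the macrophages was 872 and 1060 CPM in DSS 1 and DSS 2, against 1663 and 2761 CPM in control 1 and control 2, and none of the 17 was at 0. Genes at a higher level in all barcodes than in macrophages were kept out of the naming rule for that reason.

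Genes of recent monocyte origin were higher in part. On the list of recruited-monocyte genes 7 of 15 tested were higher and 0 lower in both DSS libraries (46.7%, with 14.3% over all genes tested). The median log2 fold change was 0.56, with 0.39 to 1.47 when 1 library was left out. Among macrophages with no UMI of Ly6c2, Plac8 or Chil3 the count was 3 of 11 (background 13.6%) and the median 0.30. Those genes are themselves on the list, so the lower count is in part set by the choice of cells. The list is not particular to myeloid cells here, since its summed level was 6574 and 16410.5 CPM in epithelial barcodes of DSS 1 and DSS 2, against 2069 and 5375 CPM in macrophages of the same libraries. Ccr2, the receptor that brings monocytes out of the marrow, had 350.0 and 323 CPM in DSS 1 and DSS 2, against 291 and 237 CPM in control 1 and control 2. After thinning, 31.5% and 34.0% of DSS macrophages had a Ccr2 UMI, against 20.4% and 20.3% of control macrophages, and 0.196% to 2.32% of epithelial barcodes. Ms4a4c, which is also an interferon target, had 64.9 and 138 CPM in DSS, against 36.2 and 25.05 CPM in control. Ly6c2 and Plac8, both on the list, stood at 0.196 and 0.147 times their level in all barcodes. Ly6c2 had a UMI in 3.52% and 6.13% of thinned macrophages in DSS 1 and DSS 2, against 29.0% and 3.79% of thinned epithelial barcodes of the same libraries. In DSS 1 the macrophage share was thus below that of epithelial barcodes. Epithelial barcodes of DSS 1 also held 71380 CPM of B and plasma cell markers, against 8356 CPM in those of DSS 2. Those of control 1 and control 2 held 2176 and 7151 CPM. What else the epithelial barcodes of DSS 1 hold was not tested, so their share is no sure measure of background. Fewer cells of a type and less RNA per cell cannot be told apart where sums over cells are compared.

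**Figure D3:**
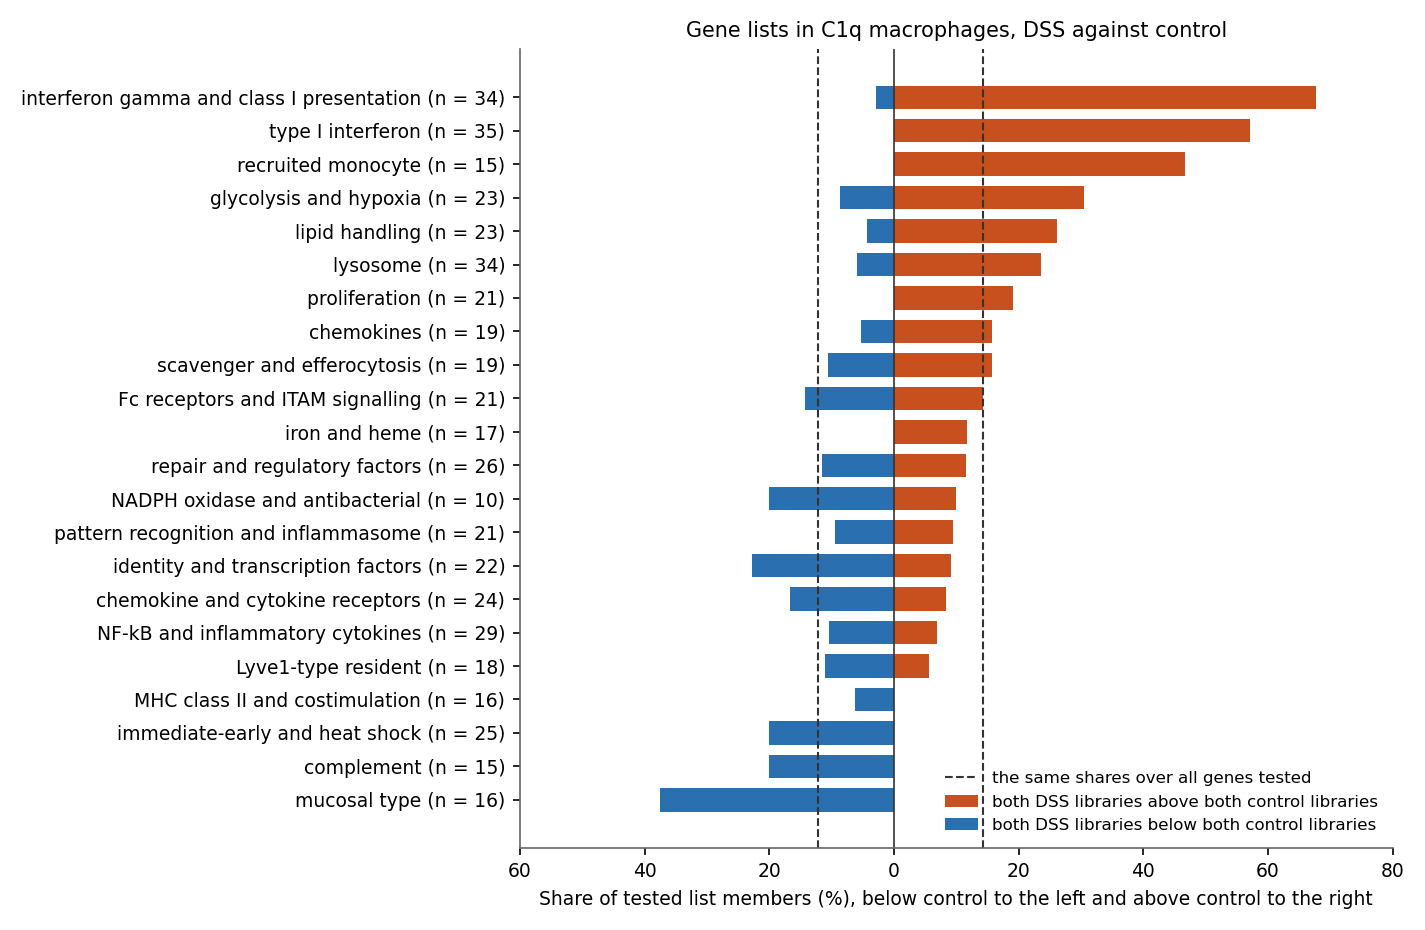
Share (%) of the tested genes of each program list, without the cell type marker lists, for which both DSS libraries lay above both control libraries (right) or below them (left), with dashed lines at 14.3% and 12.3%, the shares over all 8360 genes. Among these lists, the 2 interferon lists and the recruited-monocyte list extend farthest to the right (67.6%, 57.1% and 46.7%), and the mucosal list extends farthest to the left.

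The other lists lay nearer the background. Of 34 lysosomal genes 8 were higher and 2 lower in both DSS libraries, among them Psap, the precursor of the saposins, with 4385 and 4580.2 CPM in DSS 1 and DSS 2, against 1798 and 3891 CPM in control 1 and control 2. Of 23 lipid-handling genes 6 were higher. Fabp5, a fatty acid carrier, had 104 and 249.6 CPM in the DSS libraries, against 37.4 and 85.5 CPM in the controls. Glycolysis and hypoxia genes were higher for 7 of 23, and of these Hk3, the hexokinase of myeloid cells, had 28.7 and 69.1 CPM in DSS against 22.5 and 14.7 CPM in control. The scavenger list (3 of 19 higher), the iron list (2 of 17), the Fc receptor list (3 of 21) and the repair list (3 of 26) were close to 14.3%. Of the rest, 4 of 21 proliferation genes, 2 of 24 chemokine and cytokine receptors, 2 of 21 genes of pattern recognition, 1 of 10 of the NADPH oxidase list and 1 of 18 of the Lyve1-type list were higher. Immediate-early and heat shock genes, which tissue dissociation is known to raise, were higher for 0 of 25 and lower for 5, beside 12.3% of all genes on the lower side. Socs3 was among the 5, with 319.8 and 336 CPM in DSS 1 and DSS 2, against 696 and 436 CPM in the controls.

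A second pattern followed the number of the library and not the treatment. It was found after the data were seen. The genes below were picked because they followed it, and no list was tested. Thbs1, a matrix protein that activates TGF-beta, had 161 and 1787 CPM in DSS 1 and DSS 2, and 57.4 and 284 CPM in control 1 and control 2. Vegfa, the growth factor of vessels, had 16.9 and 146 CPM in DSS 1 and DSS 2, and 8.74 and 108 CPM in control 1 and control 2. Hilpda, a lipid droplet protein induced at low oxygen, had 38.6 and 376 CPM in DSS, and 37.4 and 231 CPM in control, again with the higher value in library 2. Clec4e, Il1r2, Odc1 and Crem followed the same order. Library 1 was higher in both groups for the immediate-early genes Egr1 (1639.9 and 607 CPM in DSS 1 and DSS 2, 2145 and 430.2 CPM in control 1 and control 2) and Fos (3173 and 1479.8 CPM in DSS, 4007 and 1959.7 CPM in control). Cd163 followed library 1 too, with 194 and 78.1 CPM in DSS 1 and DSS 2, and 343 and 78.1 CPM in control 1 and control 2. Across the 8360 genes the difference of library 1 minus library 2 in DSS and in control had a Pearson correlation of 0.436, where genes are not independent replicates. What the numbers stand for is not given in the labels.

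**Figure D4:**
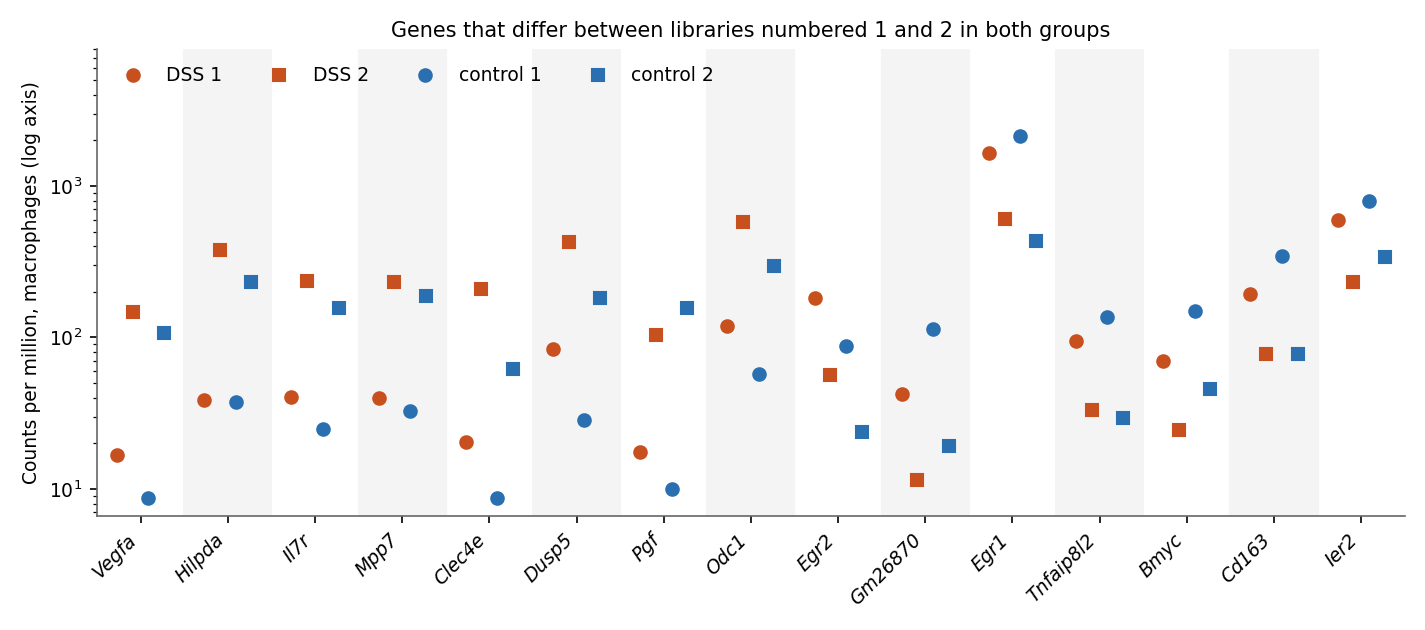
Level (CPM, log axis) in C1q macrophages of the 8 genes most raised in library 2 and the 7 most raised in library 1 in both groups, with a point for each of DSS 1, DSS 2, control 1 and control 2. Squares (library 2) lie above circles (library 1) from Vegfa to Odc1 and below them from Egr2 to Ier2, in DSS and in control alike.

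The Lyve1 side of the macrophages, with at least 2 UMIs of Lyve1, Cd163, Cd209f and Timd4, varied more within the control group than between the groups. It made up 20.6% and 12.8% of macrophages in DSS 1 and DSS 2, against 34.9% and 11.7% in control 1 and control 2. Library 1 was the higher one in both groups, and without control 1 the difference of DSS minus control turned to 4.96 percentage points. After thinning to 2000 UMIs the shares were 14.1% and 8.49% in DSS, and 25% and 8.59% in control. Smooth muscle markers were also higher in library 1 of both groups, and summed to 1133 and 61.0 CPM in the Lyve1 side of DSS 1 and DSS 2, and to 742 and 55.8 CPM in that of control 1 and control 2. Their part in the share was not tested. Beside the genes that defined it, the Lyve1 side held more of Folr2, a folate receptor of resident macrophages (239.6 CPM against 19.5 CPM in macrophages with none of these UMIs, means of 4 libraries), of F13a1, the clotting factor XIII chain (1042 and 157 CPM), of Ednrb (158 and 7.67 CPM) and of Cbr2 (343 and 34.1 CPM). It held less of Ccr2 (67.9 and 363 CPM), of the elastase Mmp12 (8.92 and 145 CPM) and of the integrin Itgax (46.9 and 208 CPM). Each of these pointed the same way in 4 of 4 libraries. Ccl21a, a gene of lymphatic endothelium, which also carries Lyve1, stood at 744 CPM in the Lyve1 side of DSS 2 (30 cells) and at 0 to 7.25 CPM in the other libraries.

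The response of the 2 sides was compared with macrophages that had at least 1 such UMI, since the stricter gate left 19 cells in control 2. Of 7165 genes, 3 (0.0419%) passed the test of the difference in response (edgeR interaction term). Ccl8, a chemokine for monocytes and T cells, had 1019 and 2955 CPM in the side with these UMIs in DSS 1 and DSS 2, against 284 and 504 CPM in control 1 and control 2. In macrophages without them it had 166 and 364 CPM in DSS, against 196 and 424 CPM in control. The DSS libraries were thus higher on 1 side and near the controls on the other, and the difference of the log2 fold changes was 2.36 ± 0.244 (SE, adjusted p = 0.000498, edgeR). Fn1, fibronectin, had 132 and 263 CPM with these UMIs in DSS, against 40.6 and 28.4 CPM in control, while without them it had 178 and 394 CPM in DSS, against 291 and 495 CPM in control. The levels of 40.6 and 28.4 CPM rested on 12 and 4 UMIs of Fn1. Clec7a, the beta-glucan receptor dectin-1, went the other way, with 294 and 373 CPM on the side with these UMIs in DSS and 359 and 723 CPM in control. In macrophages without them it had 763 and 1352 CPM in DSS, against 374 and 813 CPM in control. The differences were 2.75 ± 0.374 for Fn1 and -1.53 ± 0.241 for Clec7a (SE, adjusted p = 0.00804 and 0.0301, edgeR). The count of 3 was 13 without DSS 1, 19 without DSS 2, 42 without control 1 and 21 without control 2, and Clec7a lost the call without DSS 2.

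**Figure D5:**
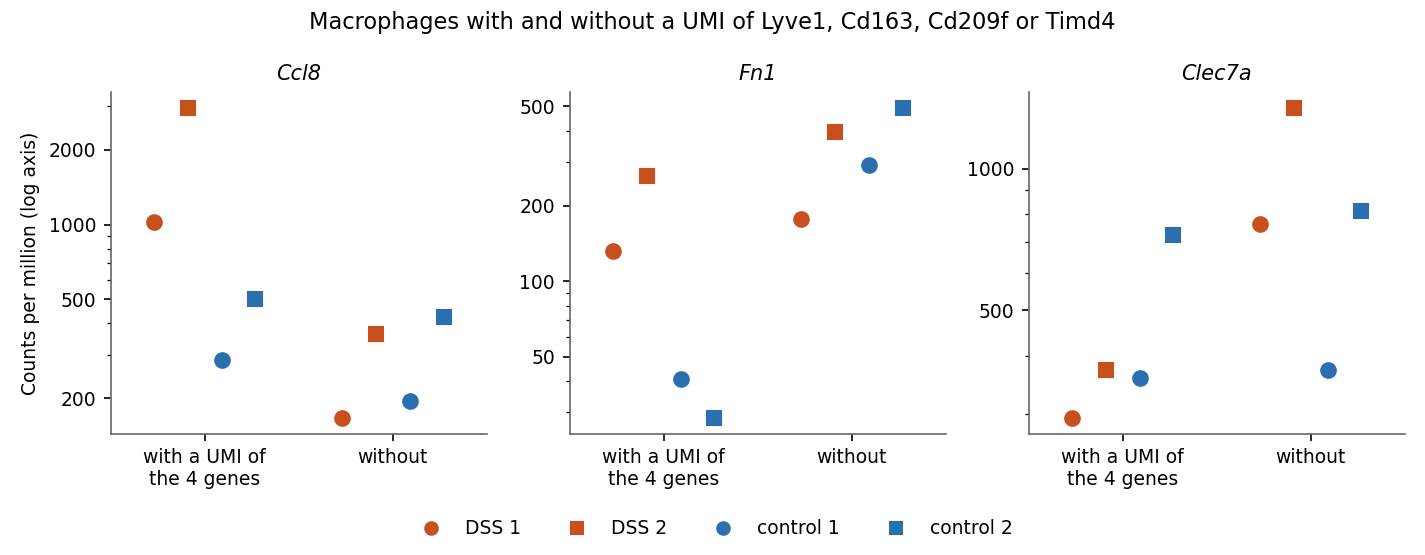
Level (CPM, log axis) of Ccl8, Fn1 and Clec7a in macrophages with at least 1 UMI of Lyve1, Cd163, Cd209f or Timd4 and in macrophages without, with a point for each library. For Ccl8 the DSS points (1019 and 2955 CPM) lie above the control points (284 and 504 CPM) on the side with these UMIs.

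The response of macrophages was also compared with that of gated monocytes. Of 8691 genes 5 (0.0575%) passed the interaction test, and 1 of them, C1qa, was used to set the gates apart. The other 4 rested on the 28 control monocytes. Ccl8 had 379 and 805 CPM in macrophages of DSS 1 and DSS 2, against 228 and 441 CPM in control 1 and control 2, and in gated monocytes it had 1.97 and 19.1 CPM in DSS, against 0 and 190 CPM in control. Hpgds, a prostaglandin D2 synthase, had 182 and 237 CPM in DSS macrophages, against 213 and 479 CPM in control macrophages, and in monocytes 3.95 and 7.96 CPM in DSS, against 27.5 and 277 CPM in control. Pcp4l1 had 14.3 and 7.32 CPM in DSS macrophages, against 2.50 and 1.47 CPM in control macrophages, and in monocytes 13.8 and 3.18 CPM in DSS, against 412 and 17.3 CPM in control. The smooth muscle gene Myh11 had 103 and 41.5 CPM in DSS macrophages, against 41.2 and 30.9 CPM in control macrophages, and in monocytes 55.2 and 60.5 CPM in DSS, against 82.4 and 641 CPM in control. Each of these 2 thus had its highest level in 1 control monocyte library. All 4 lost the call without DSS 1 and without control 1, and Ccl8 turned its direction without control 2 (-5.41). Without DSS 1 the differences in log2 fold change were 7.08 for Pcp4l1, 3.13 for Hpgds, 3.08 for Ccl8 and 2.17 for Myh11. Without control 2 that of Hpgds was 1.60 and that of Myh11 0.72, and both lost the call (adjusted p = 0.676 and 0.808, edgeR). The count of 5 was 1 without DSS 1, 0 without control 1 and 17 without control 2.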

How the data were processed

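The deposited files hold whole-number counts of UMIs per gene and barcode, as their values show. Per the submitters' processing notes, Cell Ranger 6.1.1 was used with GRCm38, and its settings were not stated. Per the labels, capture used version 3 reagents while the library kit was version 2. Barcodes were kept with at least 500 UMIs, 250 genes and at most 25% mitochondrial UMIs. Doublets were predicted with Scrublet in scanpy 1.11.5 and kept in the main result. UMIs of the gated cells were summed per library. Genes were tested with edgeR 4.0.16 in R 4.3.3 (quasi-likelihood, two-sided, TMM, filterByExpr, group as the sole term; library, gate and gate by group for differences in response), with Benjamini-Hochberg adjustment over all genes tested and a threshold of 0.05. DESeq2 1.42.0 was an alternative. The scripts were tested on simulated data. Positions are from GENCODE M21 (GRCm38), and all 55450 identifiers matched.

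The members, gates, gene lists and tests were chosen with earlier results of these data known. With no gene past the threshold, the named genes are the 10 of each direction with the smallest unadjusted p among genes of at least 20 CPM, at least as high in macrophages as in all barcodes and with groups that do not overlap. From each list the 4 genes with the highest level and the 2 with the smallest p could be named, and for levels between gates those with the largest ratios (pseudocount 5 CPM, at least 50 CPM). Of the 581 list symbols, 1 was not found in the files. Alternatives changed the tool, scaling, filters, gates and libraries. The correlation given in the report between the numbered libraries rests on 2 pairs, so the numbers were not taken to pair the libraries. Some genes that the naming rule gives are not reported here.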

Additional observations from a re-analysis of the deposited data

Results flagged for a closer look

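The response to DSS differed between macrophages with and without a UMI of Lyve1, Cd163, Cd209f or Timd4 for 3 genes in an edgeR interaction test. The differences in log2 fold change were 2.36 for Ccl8, 2.75 for Fn1 and -1.53 for Clec7a. On the side with these UMIs, Fn1 had 12 UMIs in control 1 and 4 in control 2, and the alternatives below reuse these few counts. Ccl8 and Fn1 kept the call under all 6 alternatives, which were library totals in place of TMM, the gate of 2 UMIs and each library left out in turn. Clec7a lost it under 3 of them, with adjusted p of 0.0526, 0.0552 and 0.329.

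The response differed between macrophages and gated monocytes for Pcp4l1 (6.44), Hpgds (3.71), Ccl8 (3.96) and Myh11 (3.35). The control monocyte gate held 9 and 19 barcodes. Its neutrophil marker sum was 27.5 and 7758 CPM in control 1 and control 2, and its smooth muscle marker sum was 220 and 1697 CPM. The part of these cells in the differences was not tested.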

How the results depend on the processing

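The count of genes past the threshold was 0 under 12 of 17 alternatives. It was 5 with DESeq2, 60 with no filter on low counts and 0 to 47 with 1 library left out, the highest without DSS replicate 1. With the replicate number as a block it was 101 (51 higher), and 17 of the 32 named genes followed singly passed. The cause was not tested, and the numbers are not stated to pair libraries. None of the 32 genes changed direction under any alternative run. That was largely set by how they were picked, since their groups do not overlap and leaving out 1 library could hardly reverse them. The other gates reuse most of the same cells. The median log2 fold change of the interferon gamma list was 0.47 to 0.98 and that of the type I list 0.51 to 1.20 when libraries were left out. The difference in the share of macrophages, 2.42 percentage points, was -1.16 with Ptprc-positive barcodes as the denominator, an alternative chosen after seeing the data, and 0.266 to 4.58 with 1 library left out. The difference in the Lyve1-side share, -6.64, was -18.2 to 4.96, and positive without control replicate 1. The count of genes that differed in response between macrophages and monocytes was 5, with 20 under library totals and 0 to 17 when libraries were left out, and Ccl8 was -5.41 to 5.14, reversed without control replicate 2. The count between the Lyve1 sides was 3, with 5 at the gate of 2 UMIs and 13 to 42 when libraries were left out. Control libraries held 162 and 166 macrophages, which limits what could be detected for genes at low level.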

Other observations

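Single genes were also followed by the share of macrophages with a UMI. Timd4, a receptor for dying cells that marks long-lived macrophages, had a UMI in 0.704% and 0.943% of macrophages thinned to 2000 UMIs in DSS 1 and DSS 2, against 1.32% and 5.47% in control 1 and control 2. After thinning both DSS libraries were below both controls, on 2 to 7 cells a library, and thinned epithelial barcodes had 0% to 0.0374%. Without thinning the shares were 2.27% and 2.56% in DSS, against 2.41% and 9.26% in control, and the groups overlapped. The shares that follow are after thinning. Cd4, which gut-resident macrophages also carry, was seen in 19.2% and 16.04% of DSS macrophages, against 8.55% and 28.1% of control macrophages, with the controls on either side. Il1b was seen in 61.8% and 70.3% of DSS macrophages and in 51.3% and 76.6% of control macrophages, against 0.267% to 3.82% of epithelial barcodes. Mki67, a gene of dividing cells, was seen in 4.65% and 5.66% of DSS macrophages, against 7.89% and 7.81% of control macrophages. Its share in epithelial barcodes, where crypt cells divide, was 3.37% to 7.65%, and the macrophage share is not read as division.

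Immunoglobulin and other B and plasma cell markers summed to 4506 and 891 CPM in macrophages of DSS 1 and DSS 2, against 587 and 2524 CPM in control 1 and control 2, although Cd79a was at 0 by the rule. Smooth muscle markers summed to 533 and 167 CPM in the DSS libraries and to 369 and 122 CPM in the controls.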
